A study of Mus musculus with 18 samples.

Results

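Genes of the MHC class II complex and of T cell costimulation were followed in murine renal tubular epithelial cells given TWEAK, alone or together with the inhibitor NIK SMI1. The set held 10 genes of the 36528 in the files: *Cd74*, *Ciita*, *H2-Aa*, *H2-Ab1*, *H2-Eb1*, *Cd40*, *Cd80*, *Cd83*, *Cd86* and *Cd274*. They were listed by symbol, with earlier results of these data known. RNASeq was carried out on commercial C57BL/6 renal proximal tubulo-interstitial epithelial cells (RPTEC) cultured with vehicle (DMSO), with TWEAK at 100 ng/mL, or with TWEAK at 100 ng/mL and NIK SMI1 at 3 μM. TWEAK is a cytokine of the TNF family, and NIK SMI1 is a small molecule inhibitor of NIK, the kinase of the non-canonical NF-κB pathway. Each treatment was sampled at 6 h and at 24 h in 3 samples, which gave 18 samples in 6 groups. No group received NIK SMI1 alone. The sources name no separate animals or cell preparations for the samples, so every SD and p-value below measures the spread between cultured samples.

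MHC class II molecules carry peptides to CD4+ T cells. Each is a pair of an α and a β chain (H2-Aa with H2-Ab1 in the I-A molecule) and is guided to the peptide-loading compartment by the invariant chain CD74. CIITA is the master regulator that switches the class II genes on together. A T cell also needs a second, costimulatory signal: CD80 and CD86 bind CD28 and CTLA-4, CD40 answers CD40 ligand on helper T cells and signals through TRAF adaptors and NIK, CD83 is a surface marker of mature dendritic cells, and CD274 (PD-L1) restrains T cells through PD-1. In the kidney, tubular epithelium can acquire class II molecules during inflammation.

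The class II genes share promoter elements called the X and Y boxes, to which the RFX and NF-Y factors bind and on which CIITA acts. Because the finding for these genes is how little of them was read, the elements are shown for the chains that the promoter table covers. RefSeq promoters (250 bases before to 50 after the annotated start, GRCm38.p6) were at hand for 4 of the 10 genes: *H2-Aa*, *H2-Eb1*, *Cd80* and *Cd274*. *H2-Aa* and *H2-Eb1* held both the X box letters GCAACT and the Y box letters CTGATTGG, in capitals below, upstream of the start. The stretches are written 5′ to 3′ on the gene's strand, and lie at chr17:34287847-34287924 (minus strand) and chr17:34305756-34305832 (plus strand).

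H2-Aa: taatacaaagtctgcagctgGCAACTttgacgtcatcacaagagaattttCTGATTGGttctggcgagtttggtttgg

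H2-Eb1: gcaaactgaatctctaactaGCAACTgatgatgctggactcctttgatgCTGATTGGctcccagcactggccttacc

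The boxes were 24 bases apart in *H2-Aa* and 23 apart in *H2-Eb1*, and the Y box ended 43 and 54 bases before the start. Searched on both strands of 32851 promoters, GCAACT was found in 10.9% and CTGATTGG in 4.10%. The X box followed by the Y box within 10 to 40 bases was found in 9 promoters (0.0274%), among them *H2-Aa*, *H2-Eb1* and the related chain gene *H2-Eb2*. Of 6 class II genes outside the set with a promoter at hand, *H2-Eb2* alone held this pair. The promoters of *H2-Oa*, *H2-Ob*, *H2-DMa*, *H2-DMb1* and *H2-DMb2* did not. The *Cd80* promoter held GCAACT without CTGATTGG, and that of *Cd274* held neither. A match describes these letters in this window and is not evidence of a bound site. A missing match likewise concerns these exact letters in this window and does not show that a gene lacks X or Y boxes.

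The reads counted on genes numbered from 18040966 to 51956444 a sample. The epithelial markers *Epcam*, *Cdh1*, *Krt8*, *Krt18* and *Krt19* summed to between 7937 and 10575 CPM (read counts scaled to the total reads of the sample) in all samples. Of 7 proximal tubule markers, *Slc34a1*, *Slc22a6* and *Hnf4a* had no more than 2 reads in any sample. The 7 together summed to between 9.17 and 13.0 CPM, mostly from *Slc5a2* and *Cubn*, so that several defining genes of the labelled segment were absent or nearly so. Among leukocyte markers, *Tyrobp*, *Cd3e*, *Cd3d* and *Cd3g* had no read in any sample, *Lyz2* at most 1, *Itgax* at most 3 and *Ptprc* (CD45) at most 11. Other leukocyte markers were read: *Cd68* had 236 to 647 reads a sample and *Csf1r* 101 to 583. In their highest samples, *Zbtb46* had 189 reads, *Batf3* 125, *Ccr7* 38 and *Fcgr3* 24. Reads of pancreatic islet genes (6 markers, mostly *Ins2* and *Iapp*) summed to between 11.6 and 23.9 CPM in every vehicle sample and every sample collected at 6 h. In the 3 TWEAK samples of 24 h they summed to 11.1, 0.214 and 3.47 CPM, and in the 3 samples with TWEAK and NIK SMI1 at 24 h to at most 0.0650 CPM. Reads of *Xist* (at least 2535) and of 4 Y-linked genes (at least 1168 in sum) were present together in every sample.

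All 10 genes had at least 1 read somewhere, but the level of the set was low. Per length, as the authors' RPKM (reads scaled by exon length and sequencing depth) averaged over 18 samples, *Cd40* stood highest at 1.02, followed by *Cd274* at 0.417, *Cd74* at 0.251, *Cd80* at 0.198, *Cd83* at 0.0763 and *H2-Eb1* at 0.0543. *Ciita* (0.00608), *H2-Ab1* (0.00313), *H2-Aa* (0.00129) and *Cd86* (0.000741) were lower still. The ranges over samples of neighbours in this order overlapped throughout. *Cd40*, *Cd80* and *Cd274* had more than 10 reads in all 18 samples. Tests needed over 10 reads in 4 or more samples. This left 15521 genes in all and 5 of the set: *Cd74*, *Cd40*, *Cd80*, *Cd83* and *Cd274*. The other 5 are described by their reads.

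**Figure D1:**
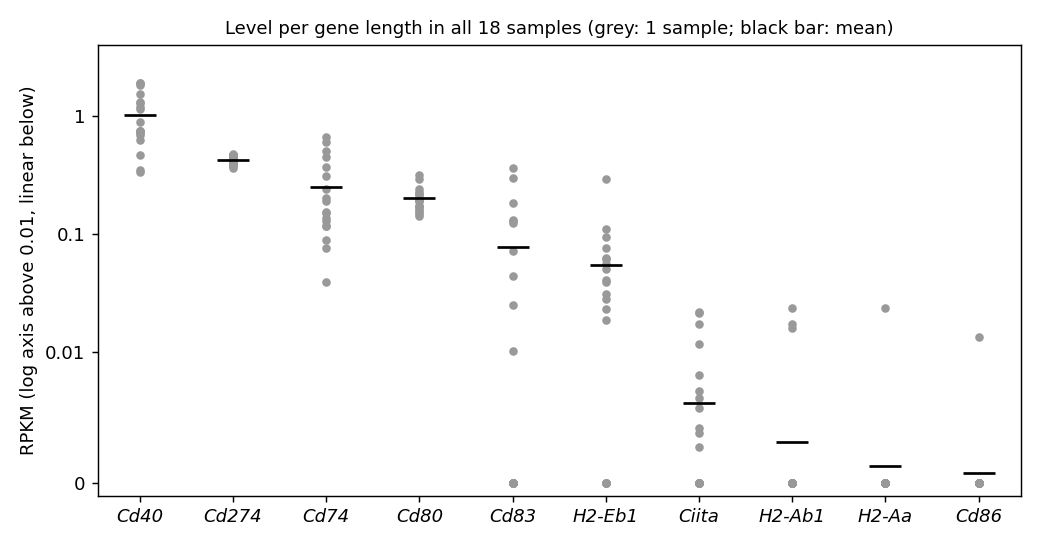
Level per gene length of the 10 genes. The vertical axis gives the authors' RPKM (logarithmic above 0.01, linear below), each grey point is 1 of 18 samples and the black bar is their mean, from 1.02 for Cd40 to 0.000741 for Cd86; the 4 genes on the right lie at 0 in many samples.

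The chains that build the I-A molecule were essentially unread. *H2-Aa*, the α chain whose promoter stretch is printed above, had 1 read among 626048357 reads of all samples, in a sample with TWEAK and NIK SMI1 at 24 h. *H2-Ab1*, its β chain partner, had 3 reads, 1 each in a TWEAK sample of 6 h, a TWEAK sample of 24 h and the sample that held the *H2-Aa* read. Pooled over all samples, the exact Poisson interval of the level was 4.04e-05 to 0.00890 CPM for *H2-Aa* and 0.000988 to 0.0140 CPM for *H2-Ab1*. These intervals, and the others given for pooled reads, cover counting error only. No difference between groups was detectable at this depth, since 0 reads in a single sample still allow a level of 0.0577 to 0.166 CPM (3 reads). *Cd86*, the second ligand of CD28, had a single read, in a vehicle sample of 24 h.

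*H2-Eb1*, the β chain of the I-E molecule, had 54 reads, more than the other 2 chains together. The α chain of I-E was not in the set, so these reads do not show that the molecule could form. Vehicle samples of 6 h held 5, 4 and 5 reads (0.162, 0.107 and 0.0962 CPM), TWEAK samples 0, 0 and 2, and samples with TWEAK and the inhibitor 0, 1 and 0. The vehicle samples of 6 h thus lay above all samples given TWEAK at that time. At 24 h the reads were 3, 10 and 1 in vehicle samples, 3, 5 and 8 in TWEAK samples, and 3, 3 and 1 in inhibitor samples (TWEAK plus NIK SMI1). Vehicle and TWEAK samples overlapped there.

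For the 2 against 14 reads of TWEAK and vehicle at 6 h, the ratio of pooled *H2-Eb1* CPM was 0.140, with an exact counting interval of 0.0154 to 0.608. An exact permutation test over samples gave p = 0.1 (two-sided), the smallest value that 3 samples against 3 allow. Fitted without the filter on low counts, the difference had an adjusted p of 0.105 (edgeR quasi-likelihood test, Benjamini-Hochberg). In that fit, none of the 30 tests on the 5 unfiltered genes passed an adjusted p of 0.05, and 2 had an unadjusted value below it, both for *H2-Eb1* against vehicle at 6 h. Only uniquely aligned reads were counted, so reads that *H2-Eb1* may share with other class II chains are missing from these values.

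*Ciita*, the regulator of all these genes, had 28 reads over 6713 exonic bases. Its reads were 0, 3 and 1 with vehicle, 2, 2 and 1 with TWEAK and 0 in all inhibitor samples at 6 h. At 24 h they were 0, 3 and 1 with vehicle, 0, 7 and 5 with TWEAK, and 2, 1 and 0 with the inhibitor. The TWEAK samples of 24 h included both the highest *Ciita* count and a 0, and overlapped the vehicle samples. Pooled, 12 against 4 reads gave a ratio of 2.24 with an exact interval of 0.678 to 9.52, and the exact permutation p was 1. With NIK SMI1 and TWEAK against TWEAK at 24 h, 3 against 12 reads gave a ratio of 0.254 (exact interval 0.0460 to 0.941, exact permutation p = 0.4).

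**Figure D2:**
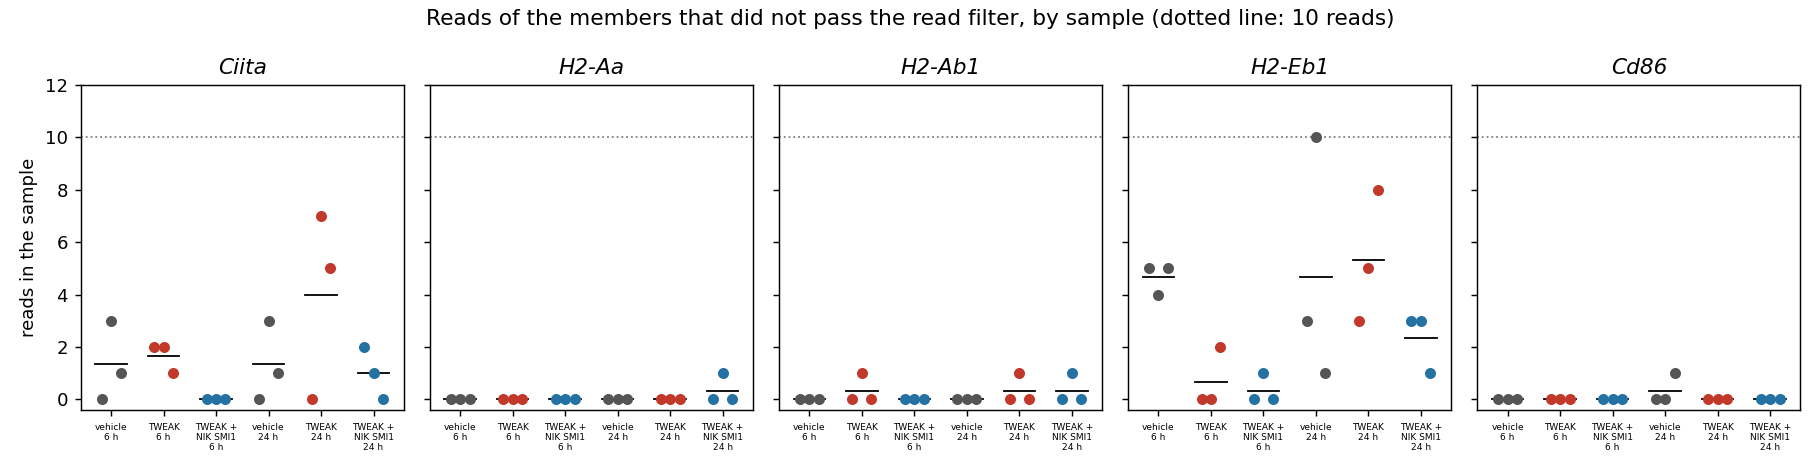
Reads of the 5 genes that did not pass the filter. The vertical axis gives reads in a sample, the horizontal axis the 6 groups, each point is 1 sample and the line the mean of 3; the dotted line marks 10 reads, which the highest H2-Eb1 sample (vehicle, 24 h) reached and none exceeded.

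*Cd74*, the invariant chain, was the only class II gene of the set with enough reads to be tested. At 6 h its reads were 4, 7 and 9 with vehicle (0.130, 0.187 and 0.173 CPM), 6, 33 and 11 with TWEAK (0.172, 0.656 and 0.290 CPM), and 4, 5 and 4 with the inhibitor. One TWEAK sample stood far above the other 2, and the lowest TWEAK sample lay within the vehicle range. At 24 h its reads were 12, 7 and 11 with vehicle (0.281, 0.355 and 0.537 CPM), 22, 35 and 37 with TWEAK (0.969, 0.749 and 0.884 CPM), and 10, 2 and 14 with the inhibitor (0.226, 0.0580 and 0.455 CPM). All TWEAK samples of 24 h lay above the other samples of that time. *Cd74* had more than 10 reads in 5 samples given TWEAK without inhibitor and in 3 other samples, fewer than the filter needs. It was therefore tested only because of the group in which it was high.

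The mean *Cd74* level at 24 h was 0.391 ± 0.132 CPM with vehicle, 0.868 ± 0.111 with TWEAK and 0.246 ± 0.199 with the inhibitor (SD, n = 3). *Cd74* rose with TWEAK at 24 h by 1.20 on the log2 scale (SE 0.432, adjusted p = 0.0285), or 2.30-fold. It was lower with NIK SMI1 added, at a log2 fold change of -1.83 (SE 0.437, adjusted p = 0.00321), or 3.55-fold. With NIK SMI1 present, *Cd74* did not differ detectably from vehicle at 24 h (fold 0.649, 95% interval 0.304 to 1.38, adjusted p = 0.498). At 6 h neither the difference of TWEAK from vehicle (log2 fold change 1.25, SE 0.507, adjusted p = 0.0769) nor that of NIK SMI1 (-1.24, SE 0.568, adjusted p = 0.184) passed the test. Here and for the other genes, fewer cells with a transcript and less RNA per cell cannot be told apart in bulk RNA.

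The call of *Cd74* for TWEAK at 24 h was lost when any of 4 samples was left out: vehicle 1 (adjusted p = 0.181), vehicle 2 (0.0634), TWEAK 1 (0.0615) or TWEAK 3 (0.0672). DESeq2 gave an adjusted p of 0.0531. Islet reads differed between the groups of 24 h, so each comparison was also fitted with the 1 TWEAK sample whose islet sum was near that of the other group, in fits in which that sample is assumed to vary like the other groups. The sample at 11.1 CPM against vehicle gave a *Cd74* log2 fold change of 1.39 (adjusted p = 0.124), and NIK SMI1 against the sample at 0.214 CPM gave -1.63 (adjusted p = 0.0869). Neither passed the test. The part of the islet reads in the 24 h differences was not otherwise tested.

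The *Cd74* values of 6 h rested on the sample with 33 reads. Without it, the log2 fold change was 0.50 for TWEAK (adjusted p = 0.632) and -0.49 for NIK SMI1 against TWEAK (adjusted p = 0.715). Without the lowest TWEAK sample, the value for TWEAK was 1.56 and passed the test (adjusted p = 0.0261).

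Of the costimulatory genes, *Cd40* rose with TWEAK and was lower with NIK SMI1 at both times. At 6 h its reads were 45, 53 and 77 with vehicle (1.46, 1.42 and 1.48 CPM), 131, 187 and 135 with TWEAK (3.76, 3.72 and 3.57 CPM), and 84, 56 and 32 with the inhibitor (2.34, 2.24 and 1.77 CPM). At 24 h they were 28, 18 and 14 with vehicle (0.655, 0.913 and 0.683 CPM), 57, 142 and 109 with TWEAK (2.51, 3.04 and 2.61 CPM), and 60, 51 and 38 with the inhibitor (1.35, 1.48 and 1.23 CPM). At each time, the 3 groups did not overlap, and the inhibitor samples lay between vehicle and TWEAK. From the highest mean to the lowest, the groups ran TWEAK 6 h, TWEAK 24 h, inhibitor 6 h, vehicle 6 h, inhibitor 24 h and vehicle 24 h. In that order the samples of vehicle 6 h and of inhibitor 24 h overlapped, and those of all other neighbours did not.

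*Cd40* rose with TWEAK from 1.45 ± 0.0332 to 3.68 ± 0.104 CPM at 6 h (SD, n = 3), by 1.35 on the log2 scale (SE 0.146, adjusted p = 3.31e-08). At 24 h it rose from 0.750 ± 0.142 to 2.72 ± 0.282 CPM, by 1.91 (SE 0.187, adjusted p = 3.20e-09). These are 2.55-fold and 3.75-fold increases, and the larger value at 24 h did not pass the test of the difference between times (0.56 on the log2 scale, SE 0.246, adjusted p = 0.184).

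Addition of NIK SMI1 lowered *Cd40* to 2.12 ± 0.301 CPM at 6 h (log2 fold change against TWEAK -0.78, SE 0.147, adjusted p = 0.000521) and to 1.36 ± 0.122 CPM at 24 h (-1.02, SE 0.156, adjusted p = 1.82e-05). These were decreases of 1.71-fold and 2.02-fold. *Cd40* remained above vehicle in the presence of the inhibitor, by 0.58 on the log2 scale at 6 h (adjusted p = 0.0191) and by 0.89 at 24 h (adjusted p = 0.00240). The difference at 6 h was lost without the inhibitor sample 1 (adjusted p = 0.119) or 2 (0.0735). With only the TWEAK 24 h sample of matching islet reads in each comparison, the *Cd40* log2 fold change was 1.78 for TWEAK (adjusted p = 1.81e-05) and -1.16 for NIK SMI1 against TWEAK (adjusted p = 0.000295).

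*Cd83*, the dendritic cell maturation marker, went from no or hardly any reads to a measurable level. At 6 h it had 0 reads in all vehicle samples, 10, 14 and 11 with TWEAK (0.287, 0.278 and 0.290 CPM), and 2, 4 and 0 with the inhibitor. At 24 h it had 0, 0 and 2 reads with vehicle, 15, 19 and 34 with TWEAK (0.661, 0.407 and 0.813 CPM), and 1, 0 and 0 with the inhibitor. The TWEAK samples lay above all other samples of their time. *Cd83* had more than 10 reads in 5 samples, all given TWEAK without inhibitor, and so was tested only because of the group in which it was high.

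At 6 h, *Cd83* was at least 11.4-fold higher with TWEAK than with vehicle (35 reads against a floor of 3 reads over the vehicle group, adjusted p = 0.000119). At 24 h, 68 against 2 reads gave a ratio of pooled CPM of 25.4, with an exact interval of 6.75 to 214 (adjusted p = 3.20e-05). Addition of NIK SMI1 at 24 h left 1 read against 68, a ratio of 0.0149 with an exact interval of 0.000373 to 0.0860 (adjusted p = 8.99e-06). At 6 h, 6 against 35 reads with and without NIK SMI1 gave a ratio of 0.267 (exact interval 0.0917 to 0.641), and the edgeR test did not pass (adjusted p = 0.0883). The *Cd83* difference between the NIK SMI1 effects at 24 h and 6 h did not pass either (adjusted p = 0.130). In the presence of NIK SMI1 at 6 h, *Cd83* was not called against vehicle (adjusted p = 0.0633), though it was without the third inhibitor sample (0.0368). With only 1 TWEAK sample at 24 h, chosen by its islet reads, *Cd83* failed the filter and no value could be fitted. The sample with few islet reads had 19 *Cd83* reads, and the sample with islet reads near vehicle had 15.

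*Cd80*, the costimulatory ligand of CD28, showed no difference that passed the test. At 6 h its samples read 0.648, 0.722 and 0.924 CPM with vehicle, 1.01, 0.795 and 0.792 with TWEAK, and 0.724, 0.599 and 0.665 with the inhibitor. At 24 h they read 0.702, 0.812 and 0.830 CPM with vehicle, 0.617, 1.33 and 0.837 with TWEAK, and 0.948, 0.899 and 1.23 with the inhibitor. The TWEAK samples of 24 h held both the lowest and the highest value of that time. The fold with TWEAK was 1.11 at 6 h (95% interval 0.771 to 1.60, adjusted p = 0.751) and 1.27 at 24 h (0.856 to 1.87, adjusted p = 0.358). With NIK SMI1 it was 0.777 at 6 h (0.518 to 1.17, adjusted p = 0.489) and 1.05 at 24 h (0.733 to 1.49, adjusted p = 0.911), so changes under the bounds of these intervals were not detectable.

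*Cd274*, encoding the inhibitory ligand PD-L1, had the narrowest relative range of the 5 tested genes. All its values lay between 1.36 and 1.80 CPM. At 6 h the TWEAK samples (1.75, 1.57 and 1.66 CPM) lay above the vehicle samples (1.36, 1.47 and 1.46 CPM), yet the fold of 1.16 did not pass the test (95% interval 0.925 to 1.46, adjusted p = 0.383). At 24 h vehicle samples read 1.66, 1.62 and 1.76 CPM and TWEAK samples 1.54, 1.78 and 1.51 CPM, with overlap. The fold there was 0.964 (0.756 to 1.23, adjusted p = 0.859). With NIK SMI1 the samples read 1.64, 1.48 and 1.50 CPM at 6 h and 1.80, 1.42 and 1.53 CPM at 24 h, with folds against TWEAK of 0.933 (0.732 to 1.19, adjusted p = 0.802) and 0.983 (0.779 to 1.24, adjusted p = 0.952).

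**Figure D3:**
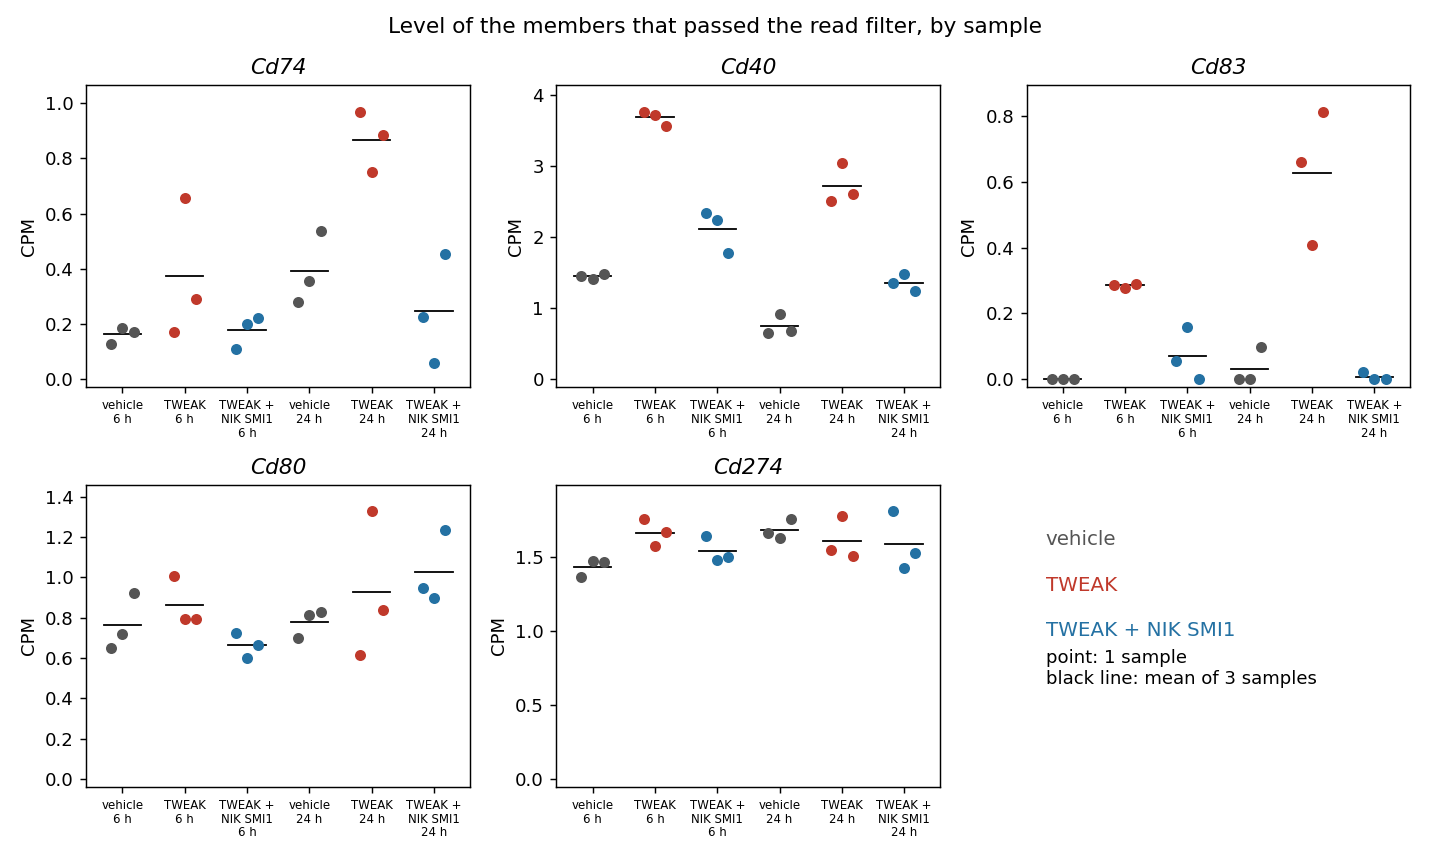
Level of the 5 tested genes by sample. The vertical axes give CPM and start just below 0, and the horizontal axes give the 6 groups of 3 samples. Points are samples and lines their means. Cd40 with TWEAK (2.51 to 3.76 CPM) lies above all other samples, and Cd83 is at 0 with vehicle at 6 h. Cd274 stays between 1.36 and 1.80 CPM in all groups.

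Counted over the set, *Cd40* and *Cd83* rose with TWEAK at 6 h and *Cd40*, *Cd74* and *Cd83* rose at 24 h, which is 2 and 3 of the 5 tested genes. Of all 15521 genes tested, 11.7% rose at 6 h and 18.3% at 24 h, but the counts cannot be read against these shares. *Cd83* passed the filter through TWEAK samples alone, and *Cd74* had more than 10 reads in 5 TWEAK samples and only 3 others, fewer than the filter needs. Among *Cd40*, *Cd80* and *Cd274*, which had more than 10 reads in every sample, *Cd40* alone rose with TWEAK at either time, 1 of 3 genes. None of the 5 was lower with TWEAK, where 12.0% and 20.7% of all genes tested were. That cannot be read against the shares either, because *Cd74* and *Cd83* passed the filter through TWEAK samples. With NIK SMI1 and TWEAK against TWEAK, 1 gene of the set was lower at 6 h (*Cd40*) and 3 at 24 h (*Cd40*, *Cd74* and *Cd83*), where 5.70% and 8.29% of all genes were lower. These counts cannot be read against the shares either, since *Cd74* and *Cd83* passed the filter through TWEAK samples. Among *Cd40*, *Cd80* and *Cd274*, *Cd40* alone was lower with NIK SMI1 at either time, 1 of 3 genes. None of the set was higher with NIK SMI1, where 5.34% and 10.2% of all genes were, and the same limit applies to this count of 0. Against vehicle, *Cd40* alone was higher with TWEAK and NIK SMI1 at either time, where 7.23% of all genes were higher at 6 h and 8.07% at 24 h. No gene of the set passed the test of a difference between times, for the TWEAK effect (8.91% of all genes) or the NIK SMI1 effect (4.74%) in edgeR or in DESeq2. Before adjustment, *Cd40* for TWEAK and *Cd83* for NIK SMI1 were below 0.05 in edgeR. The counts of 0 in single comparisons stayed 0 by the unadjusted edgeR values and by DESeq2. The comparisons of one time point share their TWEAK or vehicle samples and are not independent.

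The median log2 fold change of *Cd40*, *Cd80* and *Cd274* was 0.22 at 6 h and 0.34 at 24 h with TWEAK, against -0.0034 and -0.0055 for all genes. With NIK SMI1 added to TWEAK it was -0.36 and -0.0247, against 0.0029 and 0.0083 for all genes. With *Cd74* and *Cd83* included, the medians with TWEAK were 1.25 at 6 h, also with *Cd83* at its bound, and 1.20 at 24 h. Both are the value of *Cd74*, and the median of 6 h was 0.50 without the TWEAK sample of 33 *Cd74* reads. With NIK SMI1 the medians of the 5 genes were -0.78 and -1.02, the value of *Cd40*, and that of 6 h was -0.49 without the same TWEAK sample.

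**Figure D4:**
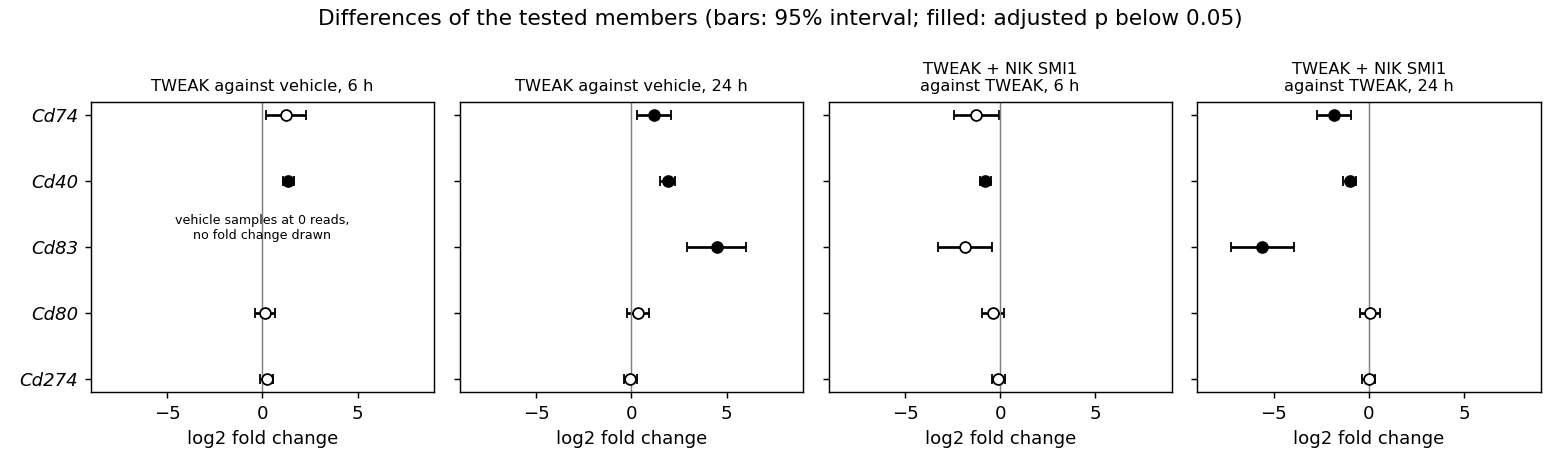
Differences of the 5 tested genes. Each panel is 1 comparison, the horizontal axis gives the log2 fold change, points are estimates, bars 95% intervals, and filled points have an adjusted p below 0.05; Cd40 is filled in all 4 panels, Cd74 at 24 h only, Cd80 and Cd274 in none, and Cd83 is not drawn for TWEAK at 6 h because the vehicle samples had no reads.

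Over 18 samples, the log2 CPM of *Cd83* was most like that of *Mrc1* (Pearson r = 0.936), *Cd82* (0.921) and *Nek6* (0.916), and *Cd74* most like *Gpsm3* (0.827), *Bves* (0.806) and *Hdac5* (0.798). These r values describe samples that share treatment groups, and no p is given.

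The rest of the class II pathway was read in the same samples. Of 6 further class II genes, *H2-Oa*, *H2-Ob* and *H2-Eb2* had no reads, and only *H2-DMa*, a chain of the peptide editor H2-DM, was tested. It passed no test (log2 fold change 0.42 with TWEAK at 6 h, adjusted p = 0.523, and 0.44 at 24 h, adjusted p = 0.565). All 7 genes of the factors that bind the X and Y boxes were tested. With TWEAK, *Rfx5* and *Nfya* rose at both times and *Nfyb* fell at 24 h. *Rfx5*, a subunit of the X box factor, went from 16.7 to 32.7 CPM at 6 h (log2 fold change 0.97, SE 0.0711, adjusted p = 1.98e-11) and from 22.5 to 32.8 CPM at 24 h (0.56, SE 0.0734, adjusted p = 5.20e-07). NIK SMI1 lowered *Rfx5* at 6 h (-0.41, adjusted p = 0.000181) and 24 h (-0.40, adjusted p = 8.55e-05), and *Nfyb* was higher at 24 h. *Rfx5* was chosen for its values after they were seen, as it missed the fold for naming.

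The endolysosomal enzymes that prepare class II peptides were well expressed and moved little. Of 6 genes 5 were tested, and *Ctss*, which trims the invariant chain in antigen-presenting cells, had 3 reads in all. *Ctsl* and *Ifi30* fell with TWEAK at 6 h, and *Ctsb*, *Ctsd*, *Ctsl* and *Lgmn* fell at 24 h. The largest of these changes was -0.31 on the log2 scale (*Lgmn*, 24 h). None of the 5 passed the test for NIK SMI1 against TWEAK. The median log2 fold change of the list was -0.08 at 6 h and -0.10 at 24 h with TWEAK.

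Among 15 other ligands of T cell receptors, 8 were tested. *Icam1*, *Cd276* and *Pvr* rose with TWEAK at both times, *Vtcn1* fell at both, and *Icosl* and *Lgals9* fell at 24 h. *Icam1*, the ligand of the integrin LFA-1, went from 1.17 ± 0.0760 to 7.01 ± 0.171 CPM at 6 h (log2 fold change 2.60, SE 0.160) and from 1.15 ± 0.500 to 12.2 ± 0.190 CPM at 24 h (3.41, SE 0.168). NIK SMI1 lowered *Icam1* by -1.03 at 6 h and -2.14 at 24 h on the log2 scale (adjusted p = 8.70e-06 and 3.18e-12). *Vtcn1*, an inhibitory ligand of the B7 family, fell from 14.2 ± 0.330 to 5.33 ± 0.145 CPM at 24 h (log2 fold change -1.41, SE 0.112, adjusted p = 5.24e-11) and did not pass the test for NIK SMI1 there (0.23, adjusted p = 0.212). *Lgals9*, the ligand of TIM-3, fell from 7.69 ± 1.12 to 2.79 ± 0.497 CPM at 24 h (-1.47, SE 0.164, adjusted p = 3.30e-08) and was higher with NIK SMI1 (0.69, SE 0.168, adjusted p = 0.00381). The list's median was 0.06 at 6 h and -0.12 at 24 h.

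The 6 genes of CD40 signalling, TRAF adaptors and *Map3k14*, which encodes NIK, were all tested. With TWEAK, 5 rose at both times: *Traf1*, *Traf2*, *Traf3*, *Traf6* and *Map3k14*. Of all genes tested, 11.7% rose at 6 h and 18.3% at 24 h. The list was chosen with earlier results of these data known, so its count cannot be read against these shares. *Traf5* fell at 24 h. *Traf1* changed most, from 1.18 ± 0.383 to 22.9 ± 0.480 CPM at 6 h (log2 fold change 4.36, SE 0.112) and from 1.15 ± 0.238 to 57.5 ± 2.47 CPM at 24 h (5.68, SE 0.114). With NIK SMI1, *Traf1* was lower by -1.91 at 6 h and -2.43 at 24 h (adjusted p = 2.73e-14 and 7.37e-19), while *Map3k14* was higher at both times. The list's median was 0.60 at 6 h and 0.69 at 24 h with TWEAK, and -0.07 and -0.13 with NIK SMI1. None of 6 receptors of T cells that bind these ligands (*Cd28*, *Ctla4*, *Icos*, *Pdcd1*, *Cd40lg* and *Cd4*) passed the filter, and *Cd28* had the most reads, 16 in all.

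Marker lists of antigen-presenting cells were set beside these values, because such cells are known for class II and costimulatory genes. The 7 dendritic cell markers summed to between 1.65 and 2.62 CPM with vehicle, 3.83 and 5.98 with TWEAK and 3.12 and 4.88 with the inhibitor at 6 h. At 24 h they summed to between 2.15 and 3.20, 5.93 and 7.36, and 3.10 and 3.86 CPM for the same treatments. Most of the sum came from *Zbtb46*, *Batf3* and *Ccr7*, and *Itgax*, *Flt3*, *Xcr1* and *Clec9a* had at most 10 reads in any sample. *Zbtb46* rose with TWEAK at both times (log2 fold change 1.59 and 1.68) and was lower with NIK SMI1 at both (-0.75, adjusted p = 0.0111, and -1.18, adjusted p = 1.13e-05). *Ccr7* rose at both times as well, from a mean of 0.0153 to 0.209 CPM at 6 h and from 0.0169 to 0.714 CPM at 24 h, and was lower with NIK SMI1 at 24 h (0.230 CPM, adjusted p = 0.00429). Like *Cd83*, *Ccr7* had more than 10 reads only in samples given TWEAK without inhibitor. It was therefore tested only because of the group in which it was high. *Batf3* rose with TWEAK at 6 h (0.95, adjusted p = 0.0154). The 9 macrophage markers summed to between 18.6 and 21.8 CPM at 6 h and 20.1 and 26.4 CPM at 24 h, nearly all from *Cd68* and *Csf1r*, while *Tyrobp* was at 0 and *Adgre1*, *Lyz2*, *Itgam* and *Cx3cr1* had at most 10 reads in any sample. *Csf1r* rose with TWEAK at 24 h (0.57, adjusted p = 2.37e-05) and was lower with NIK SMI1 there (-0.52, adjusted p = 0.000107). The 5 B cell markers summed to at most 0.160 CPM. The 5 endothelial markers summed to between 0.195 and 0.813 CPM, with *Pecam1*, *Tek* and *Tie1* at no more than 10 reads in any sample, and *Cdh5* rose with TWEAK at 24 h (1.57, adjusted p = 0.0307). No vehicle sample had more than 10 *Cdh5* reads, so *Cdh5* passed the filter only through samples given TWEAK. The 5 fibroblast markers summed to between 9.67 and 13.97 CPM, mostly from *Col1a1*, which had 197 to 693 reads a sample. *Pdgfra* had up to 33 reads and *Col1a2* up to 27, while *Pdgfrb* and *Dcn* had at most 10 in any sample. *Col1a1* fell with TWEAK at 6 h (-0.34, adjusted p = 0.0109). The part of other cell types in the differences of *Cd40*, *Cd74* and *Cd83* was not tested.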

How the data were processed

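Reads of 18 samples had been aligned by GSNAP (HTSeqGenie package) against NCBI build 37 of the mouse, per the study's methods. The authors deposited raw counts, the uniquely aligned reads in the exons of each gene, and RPKM values, scaled by exonic length and sequencing depth. The counts served all tests and the RPKM values only compared levels between genes. Identifiers were matched to RefSeq symbols (31049 of 36528). Totals ranged from 18040966 to 51956444 counts per sample (median 35374254).

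Genes with more than 10 reads in at least 4 samples (15521) entered 1 model of 6 groups (edgeR 4.0.16, TMM, quasi-likelihood test, R 4.3.3), with Benjamini-Hochberg adjustment over all tested genes and a threshold of 0.05. SEs came from the F statistic. The scripts were tested on simulated data, in which only genes with higher mean counts than any gene of the set were changed. That test does not cover calls at the low counts of the set. The genes, lists and tests were chosen with earlier results of these data known. List genes were named when called with an absolute log2 fold change above 1, up to 4 a list, and 3 genes of highest Pearson correlation (log2 CPM, prior count 2) were named per gene called for TWEAK. This list is not reported here for *Cd40*. Alternatives were DESeq2 1.42.0 (test, and size factors alone), no filter, each time alone, and leaving out each sample.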

Additional observations from a re-analysis of the deposited data

How the results depend on the processing

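The calls of *Cd40* for TWEAK and for NIK SMI1 against TWEAK held at both times under every alternative run. Those of *Cd83* for TWEAK at both times and for NIK SMI1 at 24 h held under every alternative in which it was tested. Except in the fit without the filter, *Cd83* was tested there only because of the TWEAK samples in which it was high. These alternatives are therefore no independent check of its calls. With only the TWEAK 24 h sample whose islet reads were near those of the other group, settings chosen after seeing the data, 1 gene (*Cd40*) was called higher with TWEAK and 1 lower with NIK SMI1 at 24 h, because *Cd74* missed the threshold and *Cd83* failed the filter. There the log2 fold change of *Cd80* turned with TWEAK (-0.31) and with NIK SMI1 (-0.38). With no filter on low counts, 2 genes were higher than vehicle with TWEAK and NIK SMI1 at 6 h, and leaving out single samples gave 0 to 2.

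Leaving out single samples also turned the sign of uncalled differences. Against vehicle, *Cd74* with NIK SMI1 at 6 h ranged from -0.14 to 0.33, *Cd83* with NIK SMI1 at 24 h from -2.90 to 1.82, and *Cd80* and *Cd274* with TWEAK at 24 h from -0.0285 to 0.50 and from -0.14 to 0.00202. With NIK SMI1 against TWEAK at 24 h, *Cd80* ranged from -0.10 to 0.43 and *Cd274* from -0.14 to 0.0604. The TWEAK effect at 24 h minus that at 6 h ranged from -0.36 to 0.70 for *Cd74*, -0.18 to 0.35 for *Cd80* and -2.81 to 1.03 for *Cd83*, and the NIK SMI1 effect from -0.0357 to 0.16 for *Cd274*. Without the third vehicle sample of 24 h, the vehicle group of *Cd83* had no reads. Of 458 values of single genes under alternatives 425 kept their direction and side of the threshold. Of 266 counts 260 were classed as the same, a class that allowed small shifts. In that class, the count of genes higher with TWEAK at 24 h was 3 in the main fit and 2 with the DESeq2 test. The depth limits *H2-Aa*, *H2-Ab1* and *Cd86* to 1 to 3 reads in all, at which no fold could be given.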
